A study of Mus musculus with 17 samples.

Results

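The 9 transcription factors described here, Rora, Gata3, Tbx21, Eomes, Id2, Ahr, Tcf7, Tox and Maf, govern how innate lymphoid cells (ILCs) arise and divide into lineages. They were taken as a fixed list of names and not by any measured value. They make up 9 of the 55573 genes in the colonic tables, of the 54446 genes in the tables of cultured cells and of the 18099 genes in the single-cell table, and all 9 were found in each. The study measured bulk RNA in 16 libraries of sorted mouse lymphoid tissue inducer (LTi) cells and molecules per cell in 1 library of small intestinal ILCs.

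ILCs are lymphocytes without antigen receptors. ID2 sequesters E proteins and is required by all ILCs. TCF-1, encoded by Tcf7, and TOX act early, in ILC progenitors. GATA3 is needed by all ILC lineages and is highest in ILC2s, which also need RORα, the product of Rora. T-bet, encoded by Tbx21, drives ILC1s and the NKp46-positive branch of ILC3s, and EOMES marks natural killer (NK) cells. AHR, a receptor for dietary and microbial ligands, maintains gut ILC3s, and c-MAF, encoded by Maf, restrains the shift of ILC3s towards a type 1 programme. LTi cells are ILC3s that carry CCR6 and c-Kit.

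The colonic LTi cells came from age-matched adult C57BL/6 mice that were Pdcd1hu/+ or Pdcd1hu/-, the genotypes that the titles call WT and KO. All mice drank 3% dextran sulfate sodium for 6 days and recovered for 1 day. LTi cells, gated in all bulk experiments on CD127, c-Kit and CCR6 and against KLRG-1 and lineage markers, were then split by human PD-1 on their surface into PD-1high and PD-1neg cells, with 2 libraries in each of the 4 groups. Small intestinal LTi cells of adult Pdcd1-/-Rag2-/- mice, which lack T and B cells, were kept in culture with L-carnitine and palmitic acid. They received etomoxir, an inhibitor of the mitochondrial import of long-chain fatty acids, or its vehicle water, at 60 µM for 2 days and 200 µM for the next 2 days, with 2 libraries each. Small intestinal LTi cells of adult B6 mice spent 3 days in culture, either without palmitic acid or with it at a concentration the labels print as 100 mM, with 2 libraries each. The single-cell library held untreated B6 cells, sorted for CD127 and against lineage markers alone. The labels do not say whether libraries came from separate mice, pools or cultures, so p-values measure the spread between these libraries, which may be technical.

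The bulk libraries held from 14556247 to 28992085 counts, and 3 counts corresponded to 0.103 to 0.206 counts per 1e6 counts. Levels below are such counts, scaled by TMM (CPM). The 2 vehicle libraries differed from each other by little more than sampling noise (chi-square per degree of freedom 2.11, against 23.3 to 346 in the other groups) and were counted as 1 sample. The deposited column header of vehicle replicate 1 names the library of replicate 2. Counts of the targeted gene, Pdcd1, were 4645 to 9903 in PD-1high and 167 to 3345 in PD-1neg libraries, and 1159 to 3872 in the Pdcd1-/-Rag2-/- cultures. The deleted part is not given, so these counts do not check the genotypes. The LTi markers Kit and Ccr6 had counts in all 16 libraries. Immunoglobulin RNA set the colonic libraries apart, since Igkc ran from 119 to 63230 CPM in them and 4 libraries held 12029 CPM or more. In bulk RNA, fewer cells of a type and less RNA per cell cannot be told apart.

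Per kilobase of exon, Id2 was the most abundant of the 9 factors in every group and Tbx21 and Eomes were the 2 least abundant. In Pdcd1hu/+ PD-1high cells, the order of mean levels was Id2, Tcf7, Rora, Maf, Ahr, Tox, Gata3, Tbx21 and Eomes, and no neighbours in that order overlapped between their libraries. Id2 stood there at 1153 CPM per kilobase, Tcf7 at 141, Rora at 84.8, Maf at 58.0, Ahr at 26.1, Tox at 11.1 and Gata3 at 8.60. Tbx21 at 0.447 and Eomes at 0.0501 CPM per kilobase were far below. Gata3 and Ahr changed places between groups. In both PD-1neg groups Gata3 ranked above Ahr, at 23.8 against 14.3 CPM per kilobase in Pdcd1hu/+ and at 17.8 against 17.2 in Pdcd1hu/- cells, and in each group the libraries of these neighbours overlapped. In the cultures, Gata3 ranked below Ahr and Tox in all 4 groups, with no overlap. The vehicle cultures differed from the other groups in that Maf, at 33.9 CPM per kilobase, ranked second, above Tcf7 at 31.4 and Rora at 29.3.

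**Figure D1:**
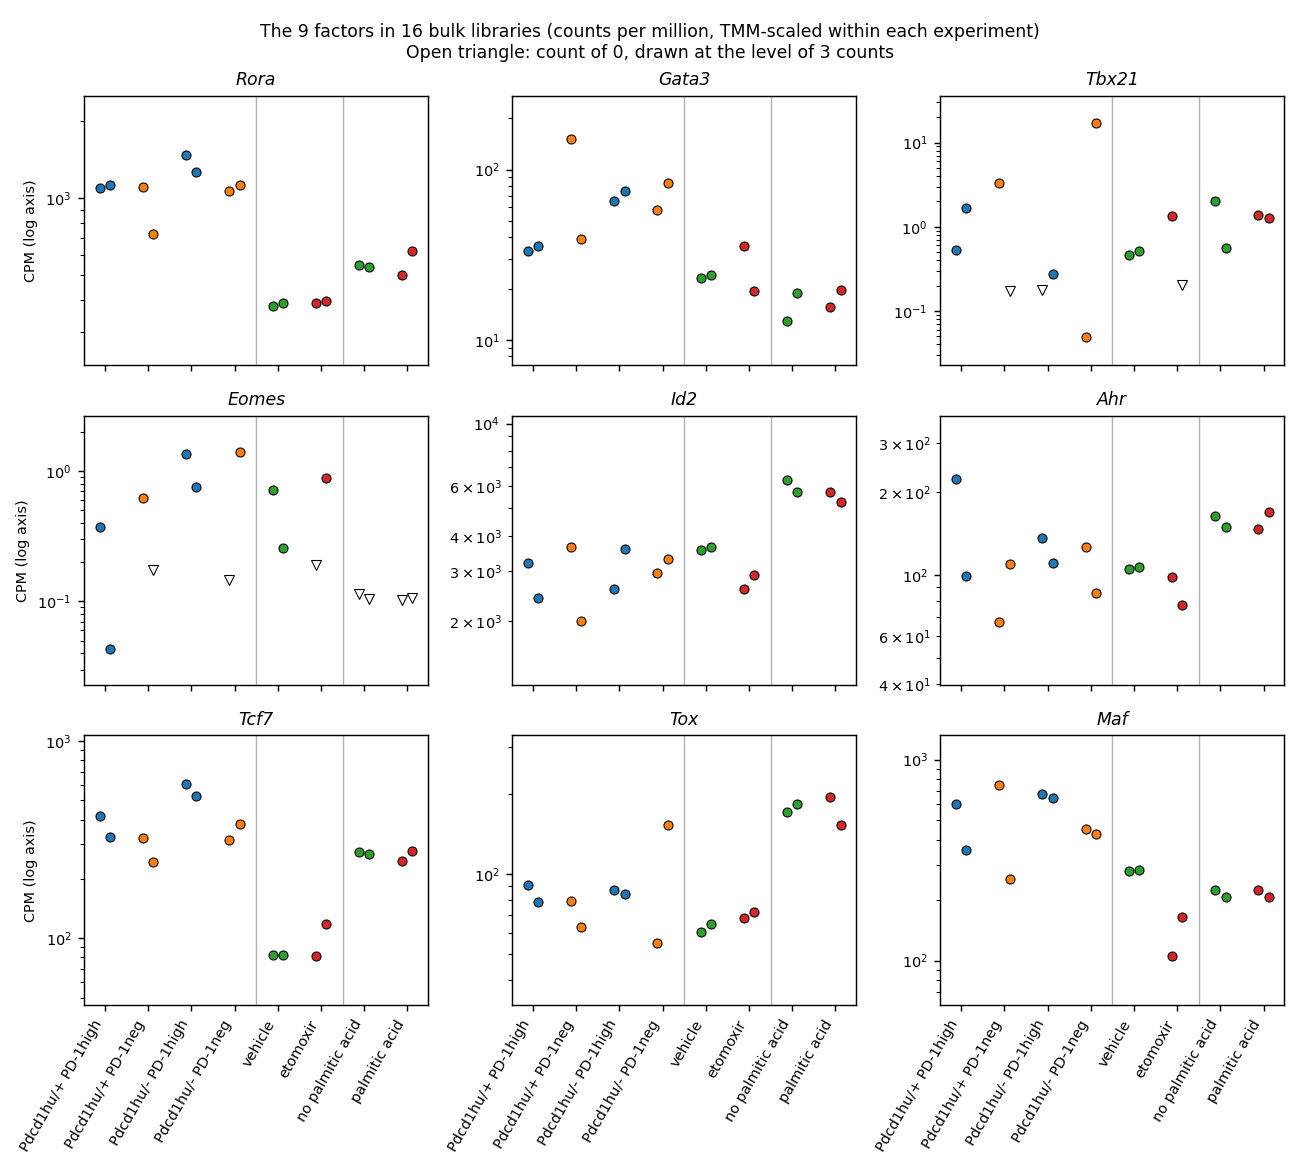
Levels of the 9 factors in 16 bulk libraries, as CPM on a log axis, with 1 point per library and groups along the x axis; vertical lines separate the 3 experiments, and open triangles mark a count of 0, drawn at the level of 3 counts. Id2, Rora, Tcf7 and Maf stood well above Tbx21 and Eomes throughout, and single libraries stood apart for Gata3 (150 CPM in 1 Pdcd1hu/+ PD-1neg library) and Tbx21 (16.9 CPM in 1 Pdcd1hu/- PD-1neg library).

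The first question was whether PD-1high and PD-1neg LTi cells of the colon differed in these factors. By edgeR's quasi-likelihood test with Benjamini-Hochberg adjustment, 0 of the 9 passed, against 0.0053% of the 18862 genes tested (1 gene). At an unadjusted p under 0.05 there was 1 of the 9, Tcf7, beside 1432 of the 18862 genes tested. By DESeq2 0 of the 9 passed. The median log2 fold change of the 9 was 0.00, beside 0.03 over all genes tested. So few genes passed that the 0 says little about these factors. Without the Pdcd1hu/+ PD-1neg library of replicate 2, the log2 fold change was 0.47 for Tcf7 and -1.06 for Gata3.

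Tcf7, whose product TCF-1 marks early ILC progenitors and persists in LTi cells, measured 415 and 326 CPM in PD-1high against 323 and 244 CPM in PD-1neg libraries of Pdcd1hu/+ mice. In Pdcd1hu/- cells it stood at 604 and 528 CPM in PD-1high and at 315 and 382 CPM in PD-1neg libraries. Within each genotype both PD-1high libraries were above both PD-1neg libraries, by a narrow margin in Pdcd1hu/+, while the pooled gates overlapped. The mean was 468 ± 123 CPM (SD, n = 4) in PD-1high and 316 ± 56.3 CPM (SD, n = 4) in PD-1neg cells, a log2 fold change of 0.54 (SE 0.22, adjusted p = 0.644 by edgeR).

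Gata3, the ILC2 factor, stood at 33.0 and 35.4 CPM in PD-1high against 150 and 39.2 CPM in PD-1neg libraries of Pdcd1hu/+ mice. In Pdcd1hu/- cells it stood at 65.1 and 74.8 CPM in PD-1high and at 58.1 and 83.8 CPM in PD-1neg libraries. The Pdcd1hu/+ PD-1neg library at 150 CPM was the highest of the 8, and the gates overlapped. The log2 fold change was -0.75 (SE 0.41, adjusted p = 0.682 by edgeR), and without that library it was -0.12. In that library the 9 ILC2 markers summed to 29.8 CPM, the lowest of the 8 (range 29.8 to 340 CPM), and 7 of the 9 were at 0, among them Il1rl1 and Il17rb. The part of other cells in its Gata3 value was not tested.

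Ahr stood at 223 and 98.8 CPM in PD-1high against 67.5 and 109 CPM in PD-1neg libraries of Pdcd1hu/+ mice. In Pdcd1hu/- cells it stood at 136 and 110.5 CPM in PD-1high and at 126 and 86.1 CPM in PD-1neg libraries. The highest value, 223 CPM, belonged to the library richest in Igkc, and the gates overlapped. The log2 fold change was 0.54 (SE 0.33, adjusted p = 0.720 by edgeR), and without that library it was 0.15.

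Rora stood between 1093 and 1469 CPM in the 4 PD-1high libraries and between 726 and 1125 CPM in the 4 PD-1neg libraries. The lowest value belonged to the Pdcd1hu/+ PD-1neg library of replicate 2, and the ranges overlapped between 1093 and 1125 CPM. The log2 fold change was 0.30 (SE 0.21, adjusted p = 0.759 by edgeR). It was 0.18 without that library and 0.46 without the Pdcd1hu/+ PD-1neg library of replicate 1.

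Id2, Tox and Maf overlapped widely between the gates, and each fitted log2 fold change lay within 1 SE of 0. Id2 ran from 2414 to 3585 CPM in PD-1high and from 2005 to 3662 CPM in PD-1neg libraries. Tox, a nuclear factor of early ILC development, kept within 78.6 to 90.8 CPM in PD-1high libraries but spread from 54.9 to 152 CPM in PD-1neg libraries. Maf ran from 355 to 677 CPM in PD-1high and from 255 to 748 CPM in PD-1neg libraries.

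Tbx21 and Eomes were at the edge of detection. Tbx21 had 0 to 39 counts in the PD-1high libraries and 0 to 301 in the PD-1neg libraries, of which 301 fell in the Pdcd1hu/- PD-1neg library of replicate 2 (16.9 CPM). The other 7 colonic libraries lay between 0 and 3.30 CPM. The fitted log2 fold change of -3.23 (SE 2.31, adjusted p = 0.769 by edgeR) became 0.40 without that library and 0.78 without the Pdcd1hu/+ PD-1neg library of replicate 1. In that library of replicate 2 the 8 ILC1 and NK markers summed to 259 CPM, the highest of the 8 (range 22.8 to 259 CPM), of which Gzmb made 188 and Klrb1c 68.9, while Klrd1 stood at 1.01 and 3 markers were at 0. The 6 T cell markers also summed highest there, at 761 CPM (range 168 to 761). In the Pdcd1hu/- PD-1high library of replicate 2 these sums were nearly as high, at 244 and 679 CPM, with Tbx21 at 0.272 CPM. The part of cells with these markers in the Tbx21 value of 16.9 CPM was not tested. Eomes had 0 to 25 counts in any colonic library, with 0 in 2 of them.

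**Figure D2:**
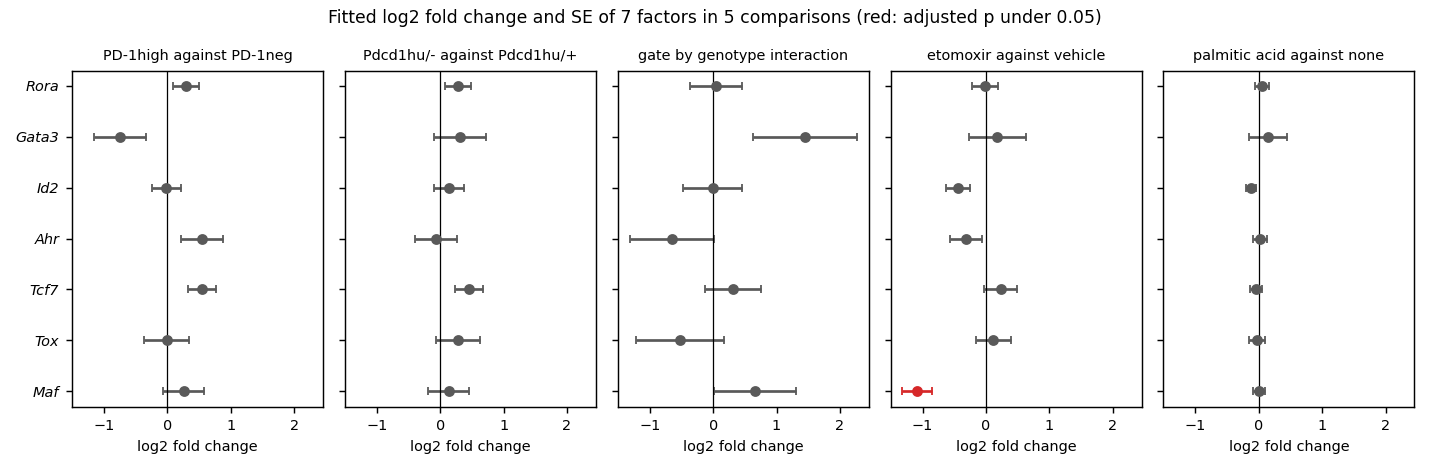
Fitted log2 fold changes (x axis, first-named group minus second) of 7 factors (rows), with bars of 1 SE, in 5 comparisons; Tbx21 and Eomes are left out because of their low counts. Maf under etomoxir, at -1.09, is the only red point, which marks an adjusted p under 0.05, and the palmitic acid values lie closest to 0.

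The second question was whether the genotypes differed. Between Pdcd1hu/- and Pdcd1hu/+ libraries, averaged over the gates, 0 of the 9 factors passed edgeR's test, beside 0% of 18862 genes. At an unadjusted p under 0.05 there were 0 of the 9, beside 923 of all genes tested, and by DESeq2 0 passed. The median log2 fold change of the 9 was 0.28, beside 0.04 over all genes. Tcf7 had a mean of 457 ± 132 CPM (SD, n = 4) in Pdcd1hu/- and 327 ± 69.7 CPM (SD, n = 4) in Pdcd1hu/+ libraries, a log2 fold change of 0.45 (SE 0.22, adjusted p = 0.900 by edgeR). Rora had 1229 ± 180 CPM (SD, n = 4) in Pdcd1hu/- and 1012 ± 192 CPM (SD, n = 4) in Pdcd1hu/+ libraries, a log2 fold change of 0.28 (SE 0.21, adjusted p = 0.937 by edgeR). The Rora value was 0.15 without the Pdcd1hu/+ PD-1neg library of replicate 2 and 0.42 without that of replicate 1. The ranges of both overlapped between the genotypes. The other 7 had fitted values within 1 SE of 0.

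For the difference of the gate effect between genotypes, again 0 of the 9 passed edgeR's test, beside 0% of 18862 genes. At an unadjusted p under 0.05 there were 0 of the 9, beside 709 of all genes tested, and by DESeq2 0 passed. For Gata3, in Pdcd1hu/+ cells both PD-1high libraries lay below both PD-1neg libraries, in Pdcd1hu/- cells the libraries interleaved, and the fitted difference was 1.45 on the log2 scale (SE 0.82, adjusted p = 1.00 by edgeR). It was 0.26 without the Pdcd1hu/+ PD-1neg library of replicate 1 and 2.13 without that of replicate 2. Tbx21 had -5.32 (SE 4.51) and Maf 0.65 (SE 0.65), and both changed sign when 1 library was left out: Tbx21 was 1.92 without the Pdcd1hu/- PD-1neg library of replicate 2, and Maf -0.24 without the Pdcd1hu/+ PD-1neg library of replicate 1.

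Relatives and partners of the 9 were read from 4 fixed lists. In the gate comparison 0 of 25 other ILC transcription factors, 0 of 5 E and ID proteins, 0 of 6 AHR pathway genes and 0 of 12 close relatives passed edgeR's test. At an unadjusted p under 0.05 there were 1, 0, 2 and 1, beside 1432 of all 18862 genes tested. Tox2, a relative of Tox expressed in ILC3s and helper T cells, stood at 175 and 135 CPM in PD-1high against 39.9 and 28.6 CPM in PD-1neg libraries of Pdcd1hu/+ mice. In Pdcd1hu/- cells it stood at 181 and 178 CPM in PD-1high and at 20.5 and 100 CPM in PD-1neg libraries. All 4 PD-1high libraries were above all 4 PD-1neg libraries, with a log2 fold change of 1.87 (SE 0.44, adjusted p = 0.481 by edgeR). Tiparp, a target and feedback inhibitor of AHR, stood at 177, 157, 238 and 149 CPM in PD-1high libraries, against 393, 345, 280 and 245 CPM in PD-1neg libraries. These ranges did not overlap either, and the log2 fold change was -0.79 (SE 0.24, adjusted p = 0.644 by edgeR). How many of all genes had no overlap between the gates was not counted. Stat3, which acts downstream of the IL-23 receptor, had 0.59 (SE 0.27, adjusted p = 0.644) and Stat5a -0.76 (SE 0.35, adjusted p = 0.644). Tcf4 had 0.58 (SE 0.35) and Tcf3, another E protein, 0.73 (SE 0.60). Rorb, at 3.51 (SE 2.23), had 0 to 56 counts in any library. Cyp1b1, a target of AHR, at 5.30 (SE 1.77), was high in 1 group: it had 37.9 and 13.1 CPM in PD-1high libraries of Pdcd1hu/- mice, with at most 0.434 CPM elsewhere. In the genotype comparison and the interaction, 0 members of the 4 lists passed, and 0 had an unadjusted p under 0.05. Those with the smallest p in the genotype comparison were Prdm1, Ikzf3, Tcf12, Id3, Cyp1b1, Arnt, Tox3 and Gata2, and in the interaction Stat5b, Klf2, Tcf4, Tcf3, Cyp1b1, Ahrr, Gata2 and Tox3.

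Under etomoxir, Maf was the 1 factor of the 9 that fell by edgeR's test, and DESeq2 also called Id2 lower. It stood at 278 and 281 CPM in the vehicle libraries and at 106 and 165 CPM in the etomoxir libraries, so both etomoxir libraries lay below the vehicle level. The log2 fold change was -1.09 (SE 0.24, adjusted p = 0.00385 by edgeR). It was -0.78 without etomoxir replicate 1 and -1.42 without etomoxir replicate 2, each with no test. The count of 1 of 9 called compares with 9.21% of the 16495 genes tested (1519 genes), of which 6.09% were higher and 3.12% lower. The median log2 fold change of the 9 was -0.01, beside 0.02 over all genes. With the vehicle libraries counted once, this fit had 1 residual degree of freedom.

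Id2 stood at 3556 and 3652 CPM with vehicle and at 2583 and 2898 CPM with etomoxir. These did not overlap, and neither did the libraries of Maf, Ahr, Rora and Tox. How many of all genes had no overlap here was not counted. The log2 fold change was -0.44 (SE 0.19, adjusted p = 0.158 by edgeR), and Id2 passed with DESeq2 (-0.46, adjusted p = 0.0452). Ahr stood at 105 and 106 CPM with vehicle and at 98.0 and 77.5 CPM with etomoxir, a log2 fold change of -0.32 (SE 0.25, adjusted p = 0.524 by edgeR). The Ahr value was -0.47 without etomoxir replicate 1 and -0.14 without etomoxir replicate 2, each with no test. Tcf7 stood at 82.1 and 82.7 CPM with vehicle and at 81.0 and 119 CPM with etomoxir. Rora stood at 379 and 388 CPM with vehicle and at 390 and 394 CPM with etomoxir. Gata3 stood at 23.0 and 24.1 CPM with vehicle and at 35.4 and 19.4 CPM with etomoxir, so the etomoxir libraries fell on either side. Tox stood at 60.7 and 64.8 CPM with vehicle and at 68.4 and 71.8 CPM with etomoxir. The fitted changes of Tcf7, Rora, Gata3 and Tox lay within 1 SE of 0. Tbx21 had 0 to 21 counts and Eomes 0 to 14 counts in these 4 libraries.

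Markers of LTi cells and of other ILC lineages were measured beside the Maf result. The 5 NCR+ ILC3 markers (Ncr1, Il22, Il23r, Klrk1 and Kit) summed to 108416 and 107409 CPM with vehicle and to 86209 and 88676 CPM with etomoxir. Kit is also 1 of the 6 LTi markers, and c-Kit was used to sort these cells, so this sum does not measure NCR+ ILC3s alone. The 8 ILC1 and NK markers summed to 1276 and 1326 CPM with vehicle and to 494 and 163 CPM with etomoxir, nearly all of it Ifng and Gzmb. Klrb1c was at 0 in all 4 libraries, Klrd1 and Ccl5 were at 0 in both etomoxir libraries, and Tbx21 itself was not above 1.33 CPM. The 6 LTi markers summed to 59868 and 60778 CPM with vehicle and to 36500 and 43192 CPM with etomoxir. Among them, Ccr6 stood at 1728 and 1693 CPM with vehicle and at 1834 and 1978 CPM with etomoxir. By edgeR 2 of 5 NCR+ ILC3 markers, 1 of 5 tested ILC1 and NK markers and 1 of 6 LTi markers fell, and 0 rose, where 3.12% of all genes tested fell and 6.09% rose. The part of these differences in the Maf value was not tested.

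Among the listed partners, 9 genes passed edgeR's test under etomoxir, 6 higher and 3 lower, where 6.09% of all genes tested were higher and 3.12% lower. Of 5 AHR pathway genes tested, Tiparp fell from 307 and 297 CPM to 97.4 and 92.3 CPM (log2 fold change -1.72, SE 0.22, adjusted p = 8.64e-07). Arnt, the dimer partner of AHR, rose from 9.75 and 8.66 CPM to 37.1 and 24.5 CPM, and Nqo1, a detoxifying enzyme under AHR and NRF2 control, rose from 30.3 and 26.6 CPM to 81.1 and 85.4 CPM. Thus 2 of these genes rose and 1 fell, while Ahr itself did not pass. Of 22 other ILC transcription factors tested, 4 passed. Ets1 rose from 90.7 and 93.5 CPM to 193 and 278 CPM and Nfil3, an early ILC factor, from 134 and 134 CPM to 233 and 247 CPM. Ikzf2 fell from 91.8 and 97.5 CPM to 34.7 and 46.3 CPM and Irf4 from 19.6 and 19.9 CPM to 2.54 and 5.33 CPM. Of 10 close relatives tested, Mafg, a small MAF protein, rose from 59.1 and 54.1 CPM to 142 and 121 CPM, and Tox2 rose from 56.7 and 56.5 CPM to 123 and 114 CPM. Of 4 E and ID proteins tested, 0 passed by edgeR. Id3 alone had an unadjusted p under 0.05, beside 3489 of all 16495 genes tested. Id3 was at 0 in both vehicle libraries and at 1.33 and 3.28 CPM with etomoxir. Tcf3 stood at 6.91 and 7.18 CPM with vehicle and at 8.68 and 16.4 CPM with etomoxir.

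**Figure D3:**
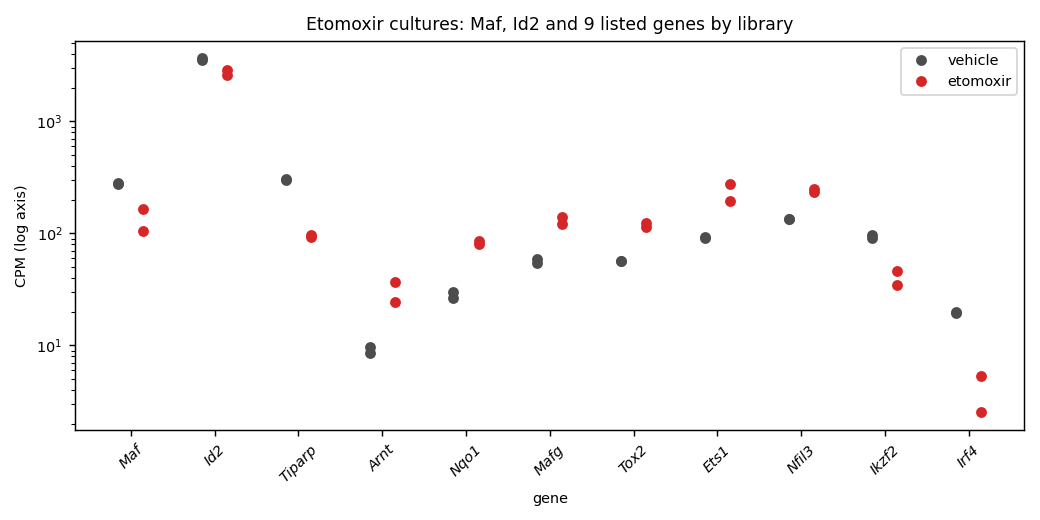
Levels of Maf, Id2 and the 9 listed genes that passed the test under etomoxir, as CPM on a log axis, with 1 point per library (grey, vehicle; red, etomoxir). Maf, Tiparp, Ikzf2 and Irf4 lie lower and Arnt, Nqo1, Mafg, Tox2, Ets1 and Nfil3 higher in both etomoxir libraries, and Id2, which did not pass by edgeR, lies lower.

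With palmitic acid, the fitted log2 fold changes of the 8 factors tested lay between -0.13 and 0.15. By edgeR, 0 of the 8 factors tested passed, beside 0.268% of 13811 genes (37 genes, 0.00724% higher and 0.261% lower). At an unadjusted p under 0.05 there were 0 of the 8, beside 836 of all genes tested. By DESeq2, 0 of the 8 factors passed. Their median log2 fold change was 0.01, beside 0.01 over all genes. Id2 stood at 6300 and 5705 CPM without and at 5701 and 5282 CPM with palmitic acid, values of which the nearest, 5705 and 5701 CPM, nearly met, with a log2 fold change of -0.13 (SE 0.08, adjusted p = 0.934 by edgeR). The Id2 value was -0.05 without replicate 1 and -0.19 without replicate 2 of the cultures with none added, and -0.07 without replicate 2 of those with palmitic acid. The other 7 had fitted values within 1 SE of 0. Maf stood at 225 and 207 CPM without and again at 225 and 207 CPM with palmitic acid, Tcf7 at 273 and 266 CPM against 247 and 278 CPM, and Rora at 547 and 535 CPM against 498 and 623 CPM. Ahr stood at 163 and 148 CPM against 147 and 168 CPM, and Tox at 171 and 182 CPM against 194 and 152 CPM. Gata3 stood at 12.8 and 18.8 CPM without and at 15.5 and 19.5 CPM with palmitic acid. Tbx21 had 16 to 54 counts, and Eomes, which was not tested, was listed at 0 in all 4 libraries. Of the listed partners 0 passed. Ets1 (-0.19), Runx3 (-0.19), Tcf12 (0.26), Tcf3 (0.45), Arnt (-0.51), Mafg (-0.42) and Tox2 (0.25) had small log2 fold changes with adjusted p of 0.863 or more by edgeR. Tiparp, at 276 and 286 CPM without and 204 and 176 CPM with palmitic acid, had a log2 fold change of -0.57 (SE 0.10, adjusted p = 0.141 by edgeR).

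In the single-cell library, 8219 cells with a median of 2698 UMIs (unique molecules counted) were available, and no cell annotation was used. With 1 library there is no replicate and no test. Intervals below are exact binomial for shares of cells and exact Poisson for UMIs, at the 95% level, and they cover counting error only. Rora was detected in 93.8% of cells (interval 93.2% to 94.3%), Id2 in 80.2%, Maf in 62.6%, Gata3 in 61.0%, Tcf7 in 39.5%, Ahr in 24.2%, Tox in 20.5% and Tbx21 in 14.6% (13.8 to 15.3). Eomes had 6 UMIs in 6 cells (0.0730%), and 0 of the 207 cells with Klrd1 held one. A count of 0 allows a share of cells with a UMI of up to 1.45% (3 of the 207 cells), or up to 1.77% by the exact binomial interval. It sets no limit on the cells that express the gene. These shares rise with depth: thinned to 1500 UMIs per cell, which left out 648 cells, Rora stood at 90.0%, Gata3 at 50.9%, Tcf7 at 27.5% and Tbx21 at 9.31% of cells.

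The cells were gated on at least 1 UMI of 4 other genes: Ccr6 for LTi cells (578 cells, median 2790 UMIs), Ncr1 for NKp46-positive cells (2197 cells, 3047 UMIs), Il1rl1 for ILC2s (591 cells, 2756 UMIs) and Klrd1 for ILC1s and NK cells (207 cells, 2698 UMIs). A total of 303 cells passed more than 1 gate, and 4959 passed none. Of the Klrd1 cells, 129 (62.3%) also held Ncr1, and of the Ccr6 cells 125 (21.6%) did. To keep the gates apart, levels are given below for cells that passed only 1 gate: 441 with Ccr6, 1908 with Ncr1, 537 with Il1rl1 and 71 with Klrd1. They are UMIs of the gene per 10000 UMIs.

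Gata3 separated the Il1rl1 gate from the others. It stood at 19.1 (interval 18.4 to 19.8) in cells with Il1rl1 only, at 3.91 (3.57 to 4.27) with Ccr6 only, at 3.17 (3.03 to 3.32) with Ncr1 only and at 3.79 (2.98 to 4.76) with Klrd1 only. The Ccr6 and Klrd1 values did not differ beyond counting error. Cells outside all 4 gates stood at 14.3 (14.1 to 14.5), well above the 3 other gates. Of these 4959 cells, 2356 held Il17rb, another ILC2 marker, and their Gata3 level was 23.2, against 4.92 in the 2603 without it. Gating on Il17rb, a choice made after the values were seen, took 3008 cells, with Gata3 at 21.4 inside and 3.94 outside the gate.

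Rora was also highest in the Il1rl1 gate, by a smaller factor. It stood at 36.5 (35.5 to 37.4) with Il1rl1 only, against 20.8 with Ccr6 only, 20.5 (20.2 to 20.9) with Ncr1 only and 22.0 (19.9 to 24.2) with Klrd1 only, and the last 3 did not differ beyond counting error. Id2 stood at 22.6 (21.9 to 23.4) with Il1rl1 only and between 13.7 and 15.7 with each other gate. Ahr was also highest with Il1rl1 only, at 1.80 (1.59 to 2.03), against 1.00 (0.923 to 1.09) with Ncr1 only, 0.760 (0.614 to 0.931) with Ccr6 only and 0.461 (0.211 to 0.875) with Klrd1 only. Thus AHR, known in the gut for ILC3s, had more transcripts per UMI in the Il1rl1 gate than in the Ccr6 and Ncr1 gates of this library.

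Tcf7 was highest in the Ccr6 gate. It stood at 5.76 (5.35 to 6.21) with Ccr6 only, at 3.06 (2.92 to 3.21) with Ncr1 only, at 2.36 (1.73 to 3.14) with Klrd1 only and at 1.03 (0.877 to 1.21) with Il1rl1 only. It was detected in 68.3% of cells with Ccr6 only and in 20.5% of cells with Il1rl1 only, and thinned to equal depth in 52.1% and 12.8%. Tox stood at 1.52 (1.31 to 1.76) with Ccr6 only and at 1.26 (1.17 to 1.35) with Ncr1 only, whose intervals overlapped, and at 0.623 (0.503 to 0.762) with Il1rl1 only.

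Maf and Tbx21 set the Ncr1 gate apart from the Ccr6 gate. Maf stood at 10.5 (10.3 to 10.8) with Ncr1 only, at 7.34 (6.87 to 7.84) with Ccr6 only, at 5.58 (4.59 to 6.74) with Klrd1 only and at 2.82 (2.56 to 3.10) with Il1rl1 only. Tbx21 stood at 3.18 (2.44 to 4.07) with Klrd1 only, at 1.42 (1.32 to 1.52) with Ncr1 only, at 0.237 (0.159 to 0.340) with Ccr6 only and at 0.126 (0.0758 to 0.197) with Il1rl1 only. It was detected in 45.1% of cells with Klrd1 only, which had a median of 2385 UMIs. In cells with Il1rl1 only, the ILC2 gate, the share was 2.61% at a median of 2704 UMIs. With Ccr6 only it was 4.99% at a median of 2575 UMIs, with overlapping intervals of the level, and with Ncr1 only 29.5%. In all cells with Il1rl1, cells of several gates included, it was 5.08%, and in all cells with Ccr6 8.82%. Among Ncr1 cells, Tbx21 stood at 2.83 in the 129 that also held Klrd1 and at 1.39 in the 2068 that did not.

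**Figure D4:**
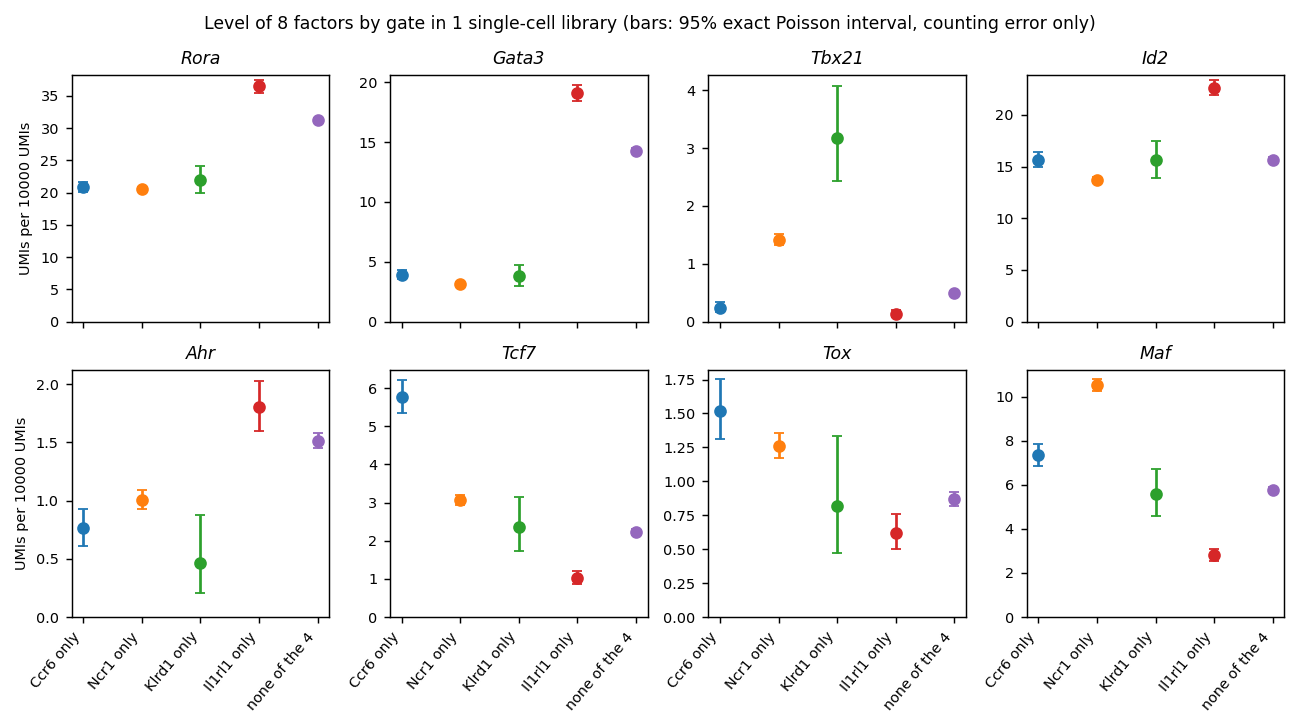
Levels of 8 factors (panels), as UMIs per 10000 UMIs, in cells that passed only 1 of 4 gates and in cells that passed none, from 1 single-cell library; points are pooled levels and bars 95% exact Poisson intervals of counting error. Gata3, Rora, Id2 and Ahr peak in the Il1rl1 gate, Tcf7 in the Ccr6 gate, Maf in the Ncr1 gate and Tbx21 in the Klrd1 gate.

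Pairs of factors were then read in the same cell. The number of cells holding both was divided by the number that the product of the 2 shares gives within each of 5 equal bins of UMI depth, so that 1 means no association beyond depth. Of the 36 pairs, 28 had a product of at least 20 cells, and the 8 left out all involved Eomes. Gata3 and Tbx21 were found together least: 573 cells held both, 0.76 times the product. Gata3 with Tcf7 (1695 cells, 0.84), Gata3 with Maf (2911 cells, 0.91), Gata3 with Tox (963 cells, 0.91), Tbx21 with Ahr (246 cells, 0.79), Ahr with Tcf7 (723 cells, 0.88), Ahr with Tox (397 cells, 0.91) and Ahr with Maf (1221 cells, 0.94) were also below 1. Tbx21 with Maf (971 cells, 1.22), Gata3 with Ahr (1458 cells, 1.16), Tcf7 with Tox (823 cells, 1.17), Tbx21 with Tcf7 (584 cells, 1.16), Tbx21 with Tox (308 cells, 1.14), Tcf7 with Maf (2319 cells, 1.10) and Tox with Maf (1222 cells, 1.10) were above 1. The pairs of Rora or Id2 all lay close to 1. With Rora in 93.8% and Id2 in 80.2% of cells, these ratios have limited room to rise above 1. They therefore say little about association. Over all cells, the factors thus fell into 2 sets, Gata3 with Ahr on one side and Tcf7, Tox, Maf and Tbx21 on the other. Of the cells with Tbx21, 47.9% also held Gata3, where Gata3 was detected in 45.8% of cells with Ncr1 only. Free RNA and doublets were not removed, so shared detection does not show that a cell expresses both. All ratios describe cells of 1 library.

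Within the Il1rl1 gate, Gata3 and Tbx21 were found together in 22 cells, 0.84 times the product, and Ahr and Tox in 20 cells, 0.70 times. Within the Ccr6 gate, Tbx21 and Tcf7 were found together in 29 cells, 0.84 times the product, where the ratio over all cells was 1.16. These rest on few cells, and their intervals were not computed.

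**Figure D5:**
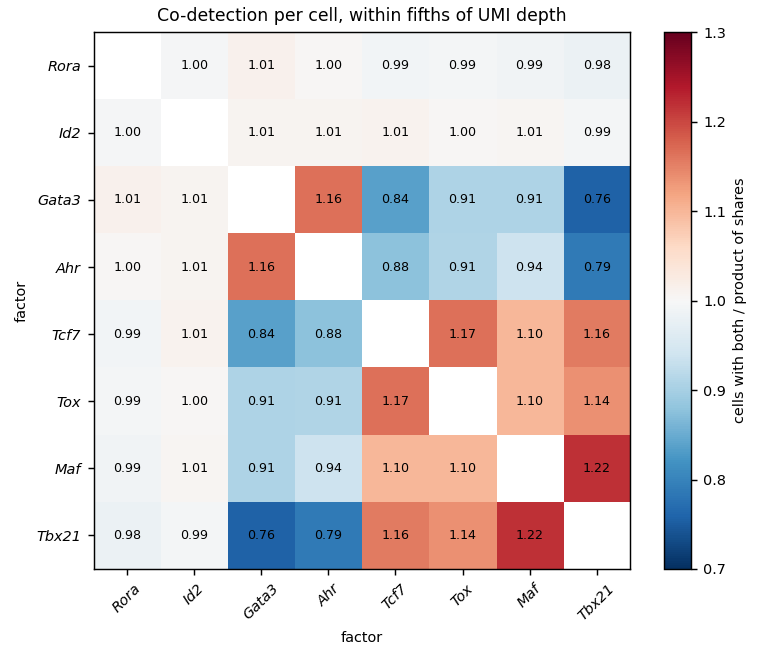
Co-detection of 8 factors per cell: each square gives the number of cells with both factors over the product of their shares within 5 bins of UMI depth (blue below 1, red above 1; 8219 cells). Gata3 is below 1 with Tbx21 (0.76), Tcf7, Tox and Maf and above 1 with Ahr (1.16). Rora and Id2, found in most cells and so with limited room to rise above 1, are near 1 throughout.

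The genes most like each factor were ranked by Pearson's r over the 8219 cells, on the natural log of 1 plus UMIs per 10000, among 8467 genes found in at least 2% of cells. These values are across cells that share a library and differ in depth, so they are descriptions. Gata3 was most like Il17rb (r = 0.61), a receptor subunit of ILC2s, then Hs3st1 (0.60) and Rplp1 (0.56). Rora was most like Hs3st1 (0.38), Vps37b (0.35) and Nrip1 (0.34). Maf was most like Gimap4 (0.35), Car2 (0.34) and Klrb1b (0.34), and Tcf7 like Klrb1b (0.31), Fcer1g (0.30) and Car2 (0.30). Tbx21 was most like Gimap4 (0.27), Ctsw (0.25) and Ncr1 (0.24), the last a gate gene. Ahr (Il17rb 0.19, Gata3 0.18, Hs3st1 0.18), Tox (Ncoa7 0.16, Car2 0.16, Fcer1g 0.16) and Id2 (Il5 0.12, Il2ra 0.12, Pim1 0.12) had weak values that single out no partner. Eomes, with 6 UMIs, gives no ranking that can be read.

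The positions are those of GRCm38, as the deposited tables give them. Rora spans chromosome 9 from 68653786 to 69388246 on the plus strand, Gata3 chromosome 2 from 9857078 to 9890034 on the minus strand, Tbx21 chromosome 11 from 97098071 to 97115331 on the minus strand and Eomes chromosome 9 from 118478212 to 118486132 on the plus strand. Id2 spans chromosome 12 from 25093799 to 25097140, Ahr chromosome 12 from 35497974 to 35535038, Tcf7 chromosome 11 from 52252371 to 52283014, Tox chromosome 4 from 6686353 to 6991557 and Maf chromosome 8 from 115682942 to 115707794, all on the minus strand. The counting used no stated strand setting, so reads from overlapping exons cannot be told apart. Other annotated genes overlap 0.627% of the exon bases of Rora, 2.06% of Ahr, 2.84% of Eomes, 3.42% of Tox and 5.34% of Maf. For Gata3, 3.90% are shared with an antisense gene and 1.94% with a gene on its own strand. Id2, Tcf7 and Tbx21 share none.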

How the data were processed

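Bulk values are read counts per gene that the authors deposited, for which the submitters' processing notes list HISAT2 2.1.0 and featureCounts. Reads were paired, per the labels' protocols. Those notes list mm10, and for the palmitic acid and single-cell libraries also GRCm39, but the deposited gene coordinates are those of GRCm38. In the palmitic acid experiment both mates appear counted, as 59.96% to 61.07% of low counts are even. The single-cell values are deposited UMI counts from BD Rhapsody, per the labels' protocols. Which software counted or filtered these cells is not given in the sources used here.

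Each experiment was fitted apart with edgeR 4.0.16 (quasi-likelihood, robust, TMM, filterByExpr) in R 4.3.3, with Benjamini-Hochberg adjustment at 0.05 over all genes. The 8 colonic libraries entered 1 fit with 4 group means. The vehicle libraries were summed into 1 sample. Code was tested on simulated data. DESeq2 1.42.0, other scalings and filters, left-out libraries and a replicate block were alternatives. CPM values are TMM-scaled within an experiment and are compared across experiments only in order. Single cells were analysed with Python 3.11.15, without a doublet caller; cells of several gates and the 2% of cells with the most UMIs were left out as alternatives. All 9 factors are named throughout. In each comparison, the rule for list genes was the 2 of each list with the smallest p; the etomoxir genes beyond these and the choice of which list genes to describe in full were made after values were seen. Fold changes of the 9 are printed where they exceed 1 SE, a rule also set after values were seen. The factors and lists were chosen with earlier results of these data known.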

Additional observations from a re-analysis of the deposited data

Results flagged for a closer look

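In sets of 4 colonic libraries (a gate or a genotype), 36 sets were examined for a library whose gap to its neighbour takes up nearly the whole range, which chance gives in about 1 in 20 sets, and many sets share libraries. Rora in the Pdcd1hu/+ PD-1neg library of replicate 2, at 726 CPM, was set apart below the other 3 PD-1neg libraries and also below the other 3 Pdcd1hu/+ libraries. Gata3 in the Pdcd1hu/+ PD-1neg library of replicate 1, at 150 CPM, was set apart above the other 3 Pdcd1hu/+ libraries. Tbx21 in the Pdcd1hu/- PD-1neg library of replicate 2, at 16.9 CPM, was set apart above the other 3 Pdcd1hu/- libraries.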

How the results depend on the processing

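Leaving out libraries moved the counts of genes called in the colon widely, with the lone library of a group assumed to vary like the others. The gate comparison, with 1 gene called, gave 2 to 595 with any 1 of the 8 libraries left out (595 without Pdcd1hu/+ PD-1neg replicate 2, 93 without Pdcd1hu/+ PD-1neg replicate 1), 151 without a filter on low counts, 301 with DESeq2 and 444 without the 4 libraries richest in Igkc, fitted with gate and genotype as additive terms. The genotype comparison, with 0, gave 0 to 232, 42, 156 and 79 under the same settings, and the interaction, with 0, gave 0 to 327, 15 without the filter and 108 with DESeq2; it could not be fitted without the 4 libraries. The highest of each range came without Pdcd1hu/+ PD-1neg replicate 2. The 9 factors stayed at 0 called in all of these. Shares over all genes tested were not computed for these settings, so the 0 says little about the factors. For etomoxir, 1519 genes became 5303 with 2 vehicle samples, where 2 factors passed (Maf and Id2), as with DESeq2, which called 1433 genes. Palmitic acid gave 37 genes, 144 without a filter, 128 with DESeq2 and 27 to 35 with a library left out. With etomoxir libraries left out there was no test.

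The labels do not say whether the replicate numbers pair the libraries. Deviations from group means correlated at -0.22 to 0.11 between groups. In the colon they correlated at 0.07 and 0.11 between gates of the same genotype and at -0.22 to -0.03 across genotypes. With 2 libraries per group, these values cannot decide whether libraries are paired. With a replicate block the gate comparison called 2 genes, and the etomoxir comparison with 2 vehicle samples called 4644 genes and 2 factors; no other call among the 9 changed.

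The 14 fold changes above 1 SE were followed, a rule set after values were seen, and 4 refits without 1 library changed sign. Tbx21 between gates ran from -5.45 to 0.78 and became 0.78 without Pdcd1hu/+ PD-1neg replicate 1 and 0.40 without Pdcd1hu/- PD-1neg replicate 2, its interaction ran from -13.24 to 1.92 and became 1.92 without the latter, and the Maf interaction ran from -0.24 to 1.25 and became -0.24 without Pdcd1hu/+ PD-1neg replicate 1. The cause of these changes was not tested. All 15 co-detection ratios over 0.05 from 1 kept their side of 1 without bins of depth, after thinning and without cells of several gates. Their size was less stable. Of the 28 ratios, 8 left the counting interval of the main value after thinning and 3 without cells of several gates. Of the 36 levels in all cells of a gate, 14 did so with gates at 2 UMIs and 7 after thinning. Without cells of several gates 12 did so, and without the cells with the most UMIs 2. Shares of cells are limited by depth, and Tbx21 and Eomes by their counts in bulk.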

Other observations

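Most cells held several of the 9 factors at once. The largest group, 2558 cells (31.1%), held 4 of them, 2018 held 3 and 1792 held 5. A total of 17 cells held none, with a median of 1282 UMIs, 18 held 8, with a median of 4040 UMIs, and 0 cells held all 9. The number rose with depth, so it describes detection as much as expression. From the shallowest to the deepest of 5 bins of cells, the share with Maf went from 46.1% to 80.2% and that with Tbx21 from 8.53% to 23.3%, while the Tbx21 level went from 0.672 to 0.847 UMIs per 10000 and the Maf level from 5.92 to 8.11.

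Cells that held both Ccr6 and Ncr1, 125 in number with a median of 3480 UMIs, had Tbx21 at 0.871, Maf at 9.36 and Tcf7 at 3.66 UMIs per 10000. Cells with Ccr6 only stood at 0.237, 7.34 and 5.76, and cells with Ncr1 only at 1.42, 10.5 and 3.06. The doubly positive cells lay between these for these 3 factors, and doublets among them were not separated. They lay outside both for Rora (22.7, against 20.8 with Ccr6 only and 20.5 with Ncr1 only). The same held for Gata3 (2.64, against 3.91 and 3.17) and Id2 (11.6, against 15.7 and 13.7). Ahr lay between, at 0.827, against 0.760 and 1.00. Tox, at 1.52, met the value with Ccr6 only.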
